A study of Mus musculus with 6 samples.

Results

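Sycp2, Ankrd33b, Gpr27, Rtn2 and Fam71a are 5 genes with little recorded function in neutrophils, out of 21955 genes counted. They were selected on the size of the log2 difference in their own read counts between the libraries labelled female and the libraries labelled male, so these differences are described here and not tested. All 5 were among the 11903 genes that passed the filter on low counts. The libraries hold polyadenylated RNA from neutrophils of the dura mater, the tough outermost meningeal membrane, of wild-type mice (genotype WT) exposed to a social threat before collection. The design held 3 libraries labelled female and 3 labelled male, all from exposed mice. No library from unexposed mice was analysed here. The labels do not give strain, age, the number of animals behind a library or whether animals were pooled, so the spread between libraries may be technical.

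The 5 genes come from unrelated families whose best-known roles lie outside the neutrophil. SYCP2 is a structural protein of the chromosome axis in meiosis, the division that makes eggs and sperm. ANKRD33B carries ankyrin repeats, a fold through which many proteins bind others. GPR27 is an orphan G protein-coupled receptor, one without an established natural ligand, of a small family conserved in vertebrate brain. RTN2 is a reticulon, a membrane protein that helps to bend the endoplasmic reticulum into tubules. FAM71A, also named GARIN4, belongs to a family of Golgi proteins that bind the small GTPase RAB2 and are known mainly from the mouse testis.

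The libraries held between 17098026 and 20778410 counts, so that 1 read was worth 0.0496 to 0.0596 CPM, the unit of read counts scaled to a common library total, here with the trimmed mean of M values (TMM). In the edgeR quasi-likelihood test, at a Benjamini-Hochberg adjusted p under 0.05, 868 genes (7.29% of those tested) were higher and 788 (6.62%) lower in libraries labelled female. The summed level of 4 Y-linked genes was 322 ± 8.94 CPM in libraries labelled female and 313 ± 5.88 CPM in the libraries labelled male (SD, n = 3 each; exact permutation test, two-sided, p = 0.3). Transcripts of the Y chromosome were thus present in each of the 3 libraries labelled female, against that label, and the groups are named by their labels only. Mitochondrially encoded genes took 7.43 ± 1.04% of counts in libraries labelled female and 11.99 ± 1.23% in the libraries labelled male (SD, n = 3 each; exact p = 0.1, two-sided, the smallest p that 3 against 3 libraries can give).

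Markers of neutrophils were abundant in every library. Their summed level ran between 60255 and 77581 CPM in libraries labelled female and between 53817 and 59405 CPM in those labelled male, and 7 of 11 markers passed the test as higher and 0 as lower in libraries labelled female. B cell markers summed to 169 to 235 CPM in libraries labelled female and 277 to 344 CPM in those labelled male, and dendritic cell markers summed to 280 to 288 CPM in libraries labelled female, against 393 to 404 CPM in the male-labelled ones. For each of these other cell types 6 of 10 markers passed as lower in libraries labelled female, 0 passed as higher and none was at 0. Of 10 macrophage markers, 1 passed as higher and 1 as lower. Their sums were 406 to 428 CPM in libraries labelled female and 421 to 439 CPM in those labelled male. Of 9 T and NK cell markers, 0 passed as higher and 1 as lower. Over all tested genes, 7.29% passed as higher and 6.62% as lower. In bulk RNA, fewer cells of a type and less RNA per cell cannot be told apart. The part of these shifts in the levels of the 5 genes was not tested.

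Sycp2 (ENSMUSG00000060445, chromosome 2) stood at 12.6, 11.2 and 12.1 CPM in the libraries labelled female, against 3.50, 4.45 and 2.86 CPM in those labelled male. Every library labelled female lay above every library labelled male. The means were 11.98 ± 0.735 CPM in libraries labelled female and 3.60 ± 0.800 CPM in the libraries labelled male (SD, n = 3 each), a fitted log2 difference of 1.73 or 3.31-fold. The values in libraries labelled male rested on 62, 78 and 48 reads, and the exact 95% Poisson interval of the lowest of them ran from 2.11 to 3.79 CPM. Poisson intervals here cover counting error only. The 250 bases before its RefSeq start site, at chr2:178407659-178407908 on the minus strand of GRCm38.p6, are shown because none of the 8 motifs searched lies in them.
Sycp2: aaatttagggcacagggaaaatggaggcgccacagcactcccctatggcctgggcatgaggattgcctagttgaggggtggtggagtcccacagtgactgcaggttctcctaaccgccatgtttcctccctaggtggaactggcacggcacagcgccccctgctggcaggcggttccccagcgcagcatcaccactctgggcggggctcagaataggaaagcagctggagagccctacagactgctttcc

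Ankrd33b (ENSMUSG00000022237, chromosome 15) stood at 26.2, 21.1 and 28.4 CPM in the libraries labelled female, against 8.64, 9.13 and 8.64 CPM in those labelled male. Again the groups did not overlap, and the libraries labelled male lay closer together than those labelled female. The means were 25.2 ± 3.72 CPM in libraries labelled female and 8.80 ± 0.281 CPM in the libraries labelled male (SD, n = 3 each), a fitted log2 difference of 1.52 or 2.86-fold. Relative to the variance that read counting alone gives, the variance was 10.9 in libraries labelled female, against 0.156 in those labelled male, each over 3 libraries. Its promoter window lies at chr15:31367760-31368009 on the minus strand of GRCm38.p6. It is shown for the same reason as that of Sycp2, and at 66.4% G and C it is the richest in these bases of the 4 windows available for the 5 genes.
Ankrd33b: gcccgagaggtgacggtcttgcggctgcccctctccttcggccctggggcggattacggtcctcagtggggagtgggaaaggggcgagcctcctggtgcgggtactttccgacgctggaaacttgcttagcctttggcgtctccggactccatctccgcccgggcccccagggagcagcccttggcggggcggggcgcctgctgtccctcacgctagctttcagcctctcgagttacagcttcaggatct

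Gpr27 (ENSMUSG00000072875, chromosome 6) stood at 18.7, 19.8 and 21.7 CPM in the libraries labelled female, against 7.17, 6.27 and 7.98 CPM in those labelled male. The lowest library labelled female was 2.34-fold above the highest library labelled male. The means were 20.1 ± 1.51 CPM in libraries labelled female and 7.14 ± 0.854 CPM in the libraries labelled male (SD, n = 3 each), a fitted log2 difference of 1.49 or 2.81-fold. Gpr27 is annotated as a single exon block of 2388 bases, and Fam71a likewise, of 2234 bases.

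Rtn2 (ENSMUSG00000030401, chromosome 7) had the lowest log2 difference of all 11903 genes tested. It stood at 0.635, 0.907 and 1.19 CPM in the libraries labelled female, against 5.25, 4.16 and 6.08 CPM in those labelled male. These are 12, 18 and 24 reads in the libraries labelled female and 93, 73 and 102 reads in those labelled male. The groups did not overlap. The exact 95% Poisson interval of the highest library labelled female was 0.763 to 1.77 CPM. That of the lowest library labelled male was 3.26 to 5.24 CPM. These intervals cover counting error only, and Rtn2 was chosen for its difference, so nothing is read from their separation. The means were 0.911 ± 0.278 CPM in libraries labelled female and 5.16 ± 0.959 CPM in the libraries labelled male (SD, n = 3 each), a fitted log2 difference of -2.49 or 5.61-fold lower in libraries labelled female. The window before its start site, at chr7:19282374-19282623 on the plus strand of GRCm38.p6, is shown for comparison with the interferon-induced genes further on.
Rtn2: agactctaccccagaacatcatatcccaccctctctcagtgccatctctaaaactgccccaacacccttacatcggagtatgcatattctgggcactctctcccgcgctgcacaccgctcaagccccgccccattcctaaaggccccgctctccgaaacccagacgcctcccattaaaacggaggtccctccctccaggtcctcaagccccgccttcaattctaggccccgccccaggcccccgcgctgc

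Fam71a (ENSMUSG00000091017, chromosome 1) stood at 13.5, 12.9 and 13.3 CPM in the libraries labelled female, against 46.9, 36.8 and 40.7 CPM in those labelled male. The libraries labelled female were nearly level with one another, and all lay below the libraries labelled male. The means were 13.2 ± 0.333 CPM in libraries labelled female and 41.5 ± 5.06 CPM in the libraries labelled male (SD, n = 3 each), a fitted log2 difference of -1.65 or 3.14-fold lower in libraries labelled female. Its spread was the mirror of that of Ankrd33b. The variance relative to counting alone was 0.165 in libraries labelled female, against 10.9 in those labelled male. Its window, at chr1:191164818-191165067 on the minus strand of GRCm38.p6, holds 49.6% G and C and is shown, as that of Rtn2, for comparison with the interferon-induced genes.
Fam71a: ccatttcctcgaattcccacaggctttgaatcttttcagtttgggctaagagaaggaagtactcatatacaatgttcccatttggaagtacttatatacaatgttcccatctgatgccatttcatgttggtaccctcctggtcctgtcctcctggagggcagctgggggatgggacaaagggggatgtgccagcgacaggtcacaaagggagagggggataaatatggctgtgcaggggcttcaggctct

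**Figure D1:**
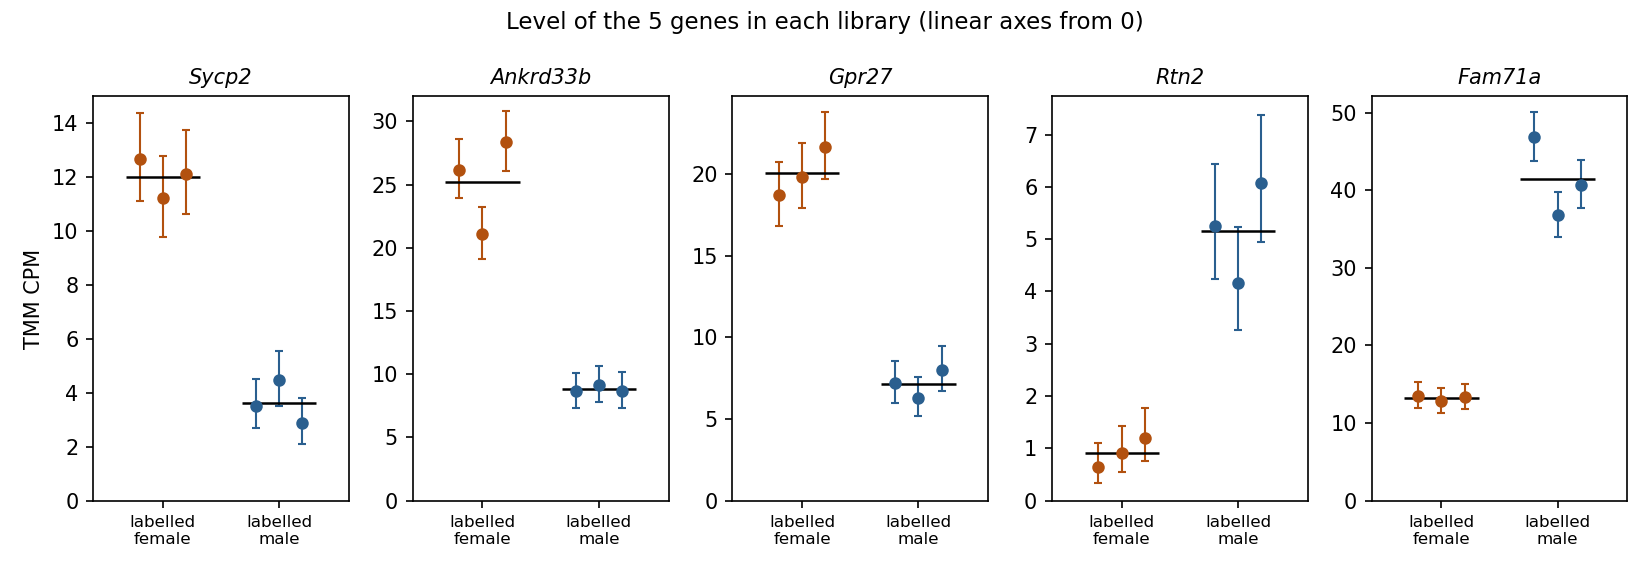
Levels of the 5 genes in TMM CPM on linear axes that start at 0, libraries labelled female left of those labelled male, with 1 point per library, its exact 95% Poisson interval, and a black line at the group mean. In none of the 5 genes do the 3 libraries labelled female overlap the 3 labelled male; Sycp2, Ankrd33b and Gpr27 are higher and Rtn2 and Fam71a lower in libraries labelled female.

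All 5 genes had groups that did not overlap, as had 3679 of the 11903 tested genes (30.9%); since the genes were chosen for this contrast, nothing is read from their count. Among called genes with separate groups and a mean of at least 1 log2 CPM, ranked by the size of the log2 difference, Sycp2 ranked 3 of 826 higher genes, Ankrd33b 7 and Gpr27 8. The genes next to them were Gm5483 (log2 difference 1.79) and Stfa2 (1.58) around Sycp2, and the globin genes Hbb-bs (1.54) and Hbb-bt (1.45) around the other pair. Among 737 lower genes Rtn2 ranked 1 and Fam71a 7. Phf11d followed Rtn2 with a log2 difference of -2.17, while Ifi213 (-1.67) and Ifi44 (-1.63) stood on either side of Fam71a. The ranks of the 5 genes follow from their choice for large differences, and nothing is read from them.

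Scaled by annotated exon length, the order of the levels differed between the groups. In libraries labelled female, Gpr27 had 8.40 ± 0.634 CPM per kilobase, Fam71a 5.92 ± 0.149, Ankrd33b 2.88 ± 0.425, Sycp2 2.01 ± 0.123 and Rtn2 0.199 ± 0.0606 (SD, n = 3 each). Each neighbouring pair in that order was separate in its 3 libraries. In libraries labelled male, Fam71a came first with 18.6 ± 2.26 CPM per kilobase, followed by Gpr27 with 2.99 ± 0.358, Rtn2 with 1.13 ± 0.209, Ankrd33b with 1.00 ± 0.0320 and Sycp2 with 0.604 ± 0.134 (SD, n = 3 each). There, Rtn2 and Ankrd33b overlapped and the other neighbours in the order did not. The median tested gene had 5.59 CPM per kilobase in both groups. Fam71a thus lay near the middle of all tested genes in libraries labelled female (percentile 51.5) and in the upper part in libraries labelled male (percentile 79.7), whereas Rtn2 lay at percentile 4.1 in libraries labelled female and at 19.2 in those labelled male.

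The genes beside the 5 on their chromosomes were not part of the rule that chose the 5, and were tested. The differences of Prok2 and Fosb, which are among these neighbours, were however known at that choice. On each side the 5 nearest measured protein-coding genes were taken, 50 in all, of which 4 had no read and 38 passed the filter. Of the 38, 6 were higher and 3 lower in libraries labelled female (edgeR quasi-likelihood test, Benjamini-Hochberg adjusted p under 0.05), a share of 23.7% beside 13.9% of all tested genes. The median log2 difference was 0.02 over the 38 genes and 0.0016 over all tested genes. Of the 9 that passed, 6 moved in the direction of the gene they neighbour and 3 against it.

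Of the 10 immediately adjacent genes 8 were tested and 4 passed. These 4 moved in the direction of the gene they adjoin, and each adjoins a different one of the 5. This tally was made after the values were seen, and the differences of Prok2 and Fosb were known when the 5 genes were chosen. Next to Sycp2, Ppp1r3d, which encodes a glycogen-targeting subunit of protein phosphatase 1, had 28.4, 24.6 and 32.6 CPM in libraries labelled female against 14.1, 19.1 and 19.6 CPM in those labelled male. Its log2 difference was 0.70 (SE 0.12, edgeR adjusted p = 0.000548). Next to Gpr27, Prok2, which encodes the secreted chemoattractant prokineticin 2, had 6.56, 5.70 and 8.53 CPM in libraries labelled female against 1.81, 1.77 and 1.79 CPM in those labelled male. Its log2 difference was 1.95 (SE 0.22, edgeR adjusted p = 3.45e-06).

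Next to Rtn2, Fosb, an AP-1 transcription factor of the immediate early response, had 1195, 1217 and 1175 CPM in libraries labelled female against 1820, 1850 and 1873 CPM in those labelled male. Its log2 difference was -0.63 (SE 0.056, edgeR adjusted p = 1.04e-07). Next to Fam71a, Atf3, a stress-induced transcription factor, had 409, 396 and 439 CPM in libraries labelled female against 649, 572 and 609 CPM in those labelled male. Its log2 difference was -0.56 (SE 0.062, edgeR adjusted p = 2.14e-06). All 4 genes had groups that did not overlap, as had 3679 of the 11903 tested genes (30.9%). The 4 are named because they passed the test, so nothing further is read from this.

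Both neighbours of Ankrd33b were tested and neither passed: Dap had a log2 difference of -0.05 (adjusted p = 0.687) and Ropn1l of -0.04 (adjusted p = 0.956). Eif4e3, on the other side of Gpr27, had 0.17 (adjusted p = 0.157), and Batf3, on the other side of Fam71a, had -0.62 (adjusted p = 0.276, edgeR throughout). Of the other called neighbours, Fam217b near Sycp2 (log2 difference 0.53, adjusted p = 0.00026) and Rybp near Gpr27 (0.25, adjusted p = 0.034) were higher, as were Vasp near Rtn2 (0.34, adjusted p = 0.00206) and Flvcr1 near Fam71a (0.34, adjusted p = 0.00195). Otulinl, near Ankrd33b, was lower (-0.21, adjusted p = 0.0319). Rybp passed in only 1 and Otulinl in 2 of the 6 fits that left out a library; the adjusted p of Rybp was 0.123 and 0.0915 without the libraries labelled female 1 and 2, and 0.142, 0.0944 and 0.0647 without those labelled male 1, 2 and 3. That of Otulinl was 0.0854 without the library labelled female 1 and 0.0772, 0.159 and 0.0956 without those labelled male 1, 2 and 3.

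No annotated gene overlaps any of the 5. The 4 adjacent genes that passed are annotated as transcribed toward their neighbour, as are 8 of the 10 adjacent genes. For each 1000 CPM of Fosb there were 0.762 CPM of Rtn2 in libraries labelled female and 2.79 CPM in those labelled male. Fam71a stood at 31.9 CPM per 1000 CPM of Atf3 in libraries labelled female and 68.0 CPM in those labelled male. Sycp2 stood at 420 CPM per 1000 CPM of Ppp1r3d in libraries labelled female and 205 CPM in those labelled male. Gpr27 stood at 2894 CPM per 1000 CPM of Prok2 in libraries labelled female and 3996 CPM in those labelled male. These are ratios of group means, given without a test. Sycp2, Gpr27, Rtn2 and Fam71a were chosen for large differences, so nothing is read from a ratio that differs between the groups. The part of reads from the adjacent gene in the counts of Sycp2, Gpr27, Rtn2 and Fam71a was not tested.

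**Figure D2:**
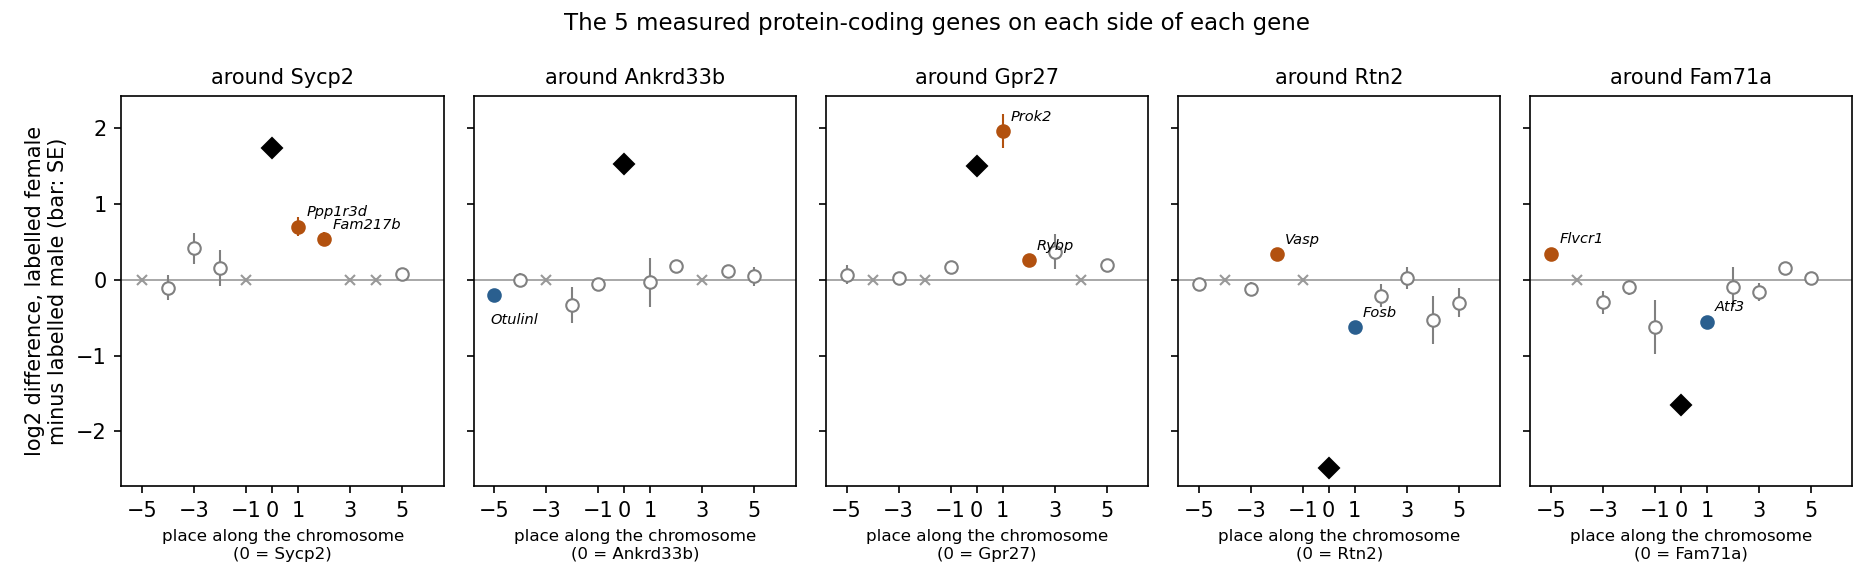
Log2 difference (libraries labelled female minus those labelled male) of each of the 5 genes, in the centre, and of its tested neighbours by place along the chromosome, with bars for the SE, filled points for an adjusted p under 0.05 and crosses at 0 for genes that did not pass the filter on low counts. Ppp1r3d, Prok2, Fosb and Atf3 stand directly beside Sycp2, Gpr27, Rtn2 and Fam71a and lie on the same side of 0 as these; Dap and Ropn1l beside Ankrd33b lie near 0.

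The genes whose profile over the 6 libraries was most like each of the 5 were sought by the root mean square (RMS) difference of their centred log2 CPM. Since the difference between the groups dominates every profile, such genes share it by construction and are given as a description. The 3 higher genes were close to one another. The RMS difference was 0.171 between Ankrd33b and Gpr27, 0.213 between Sycp2 and Ankrd33b and 0.316 between Sycp2 and Gpr27, and it was 0.468 between Rtn2 and Fam71a.

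Gpr27 lay nearest to Stfa2l1 (RMS difference 0.0943), a stefin gene, and Asprv1 (0.0944), which encodes an aspartic protease, followed by Retnlg (0.131), a resistin-like gene of neutrophils, Ankrd33b and Arg2 (0.175), an arginase gene. Retnlg itself had 1903 ± 209 CPM in libraries labelled female and 800 ± 64.7 CPM in the libraries labelled male (SD, n = 3 each). Ankrd33b lay nearest to Acod1 (0.148), whose enzyme makes itaconate, then to Retnlg (0.171), Gpr27, Asprv1 (0.203) and Prok2 (0.205). Acod1 had 50.6 ± 10.04 CPM in libraries labelled female and 17.3 ± 2.81 CPM in the libraries labelled male (SD, n = 3 each). Sycp2 lay nearest to Ankrd33b, then to Prok2 (0.248), the small GTPase gene Rhoc (0.267), Stfa2 (0.284) and Acod1 (0.316).

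Fam71a lay nearest to 5 genes known to be induced by interferon. They were Oasl1 (RMS difference 0.0821), Ifi213 (0.0845), Ifi206 (0.103), Ifi44 (0.108) and Mx2 (0.124). Ifi213 had 25.5 ± 0.679 CPM in libraries labelled female and 81.0 ± 2.86 CPM in those labelled male, and Oasl1 had 6.69 ± 0.0385 CPM in libraries labelled female and 22.9 ± 2.38 CPM in the libraries labelled male (SD, n = 3 each). Rtn2 lay nearest to Ifit3 (0.363), Phf11d (0.364), Oasl1 (0.406), the ubiquitin-like modifier gene Isg15 (0.439) and Ifi213 (0.448), at a greater distance than Fam71a from its own list. Ifit3 had 9.30 ± 0.999 CPM in libraries labelled female and 33.7 ± 3.85 CPM in the libraries labelled male (SD, n = 3 each). Stfa2, Stfa2l1, Ifi206 and Ifi213 belong to families of closely similar copies, so their counts are uncertain. Of the 25 places in these lists, 18 to 22 kept their gene when 1 library was left out.

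**Figure D3:**
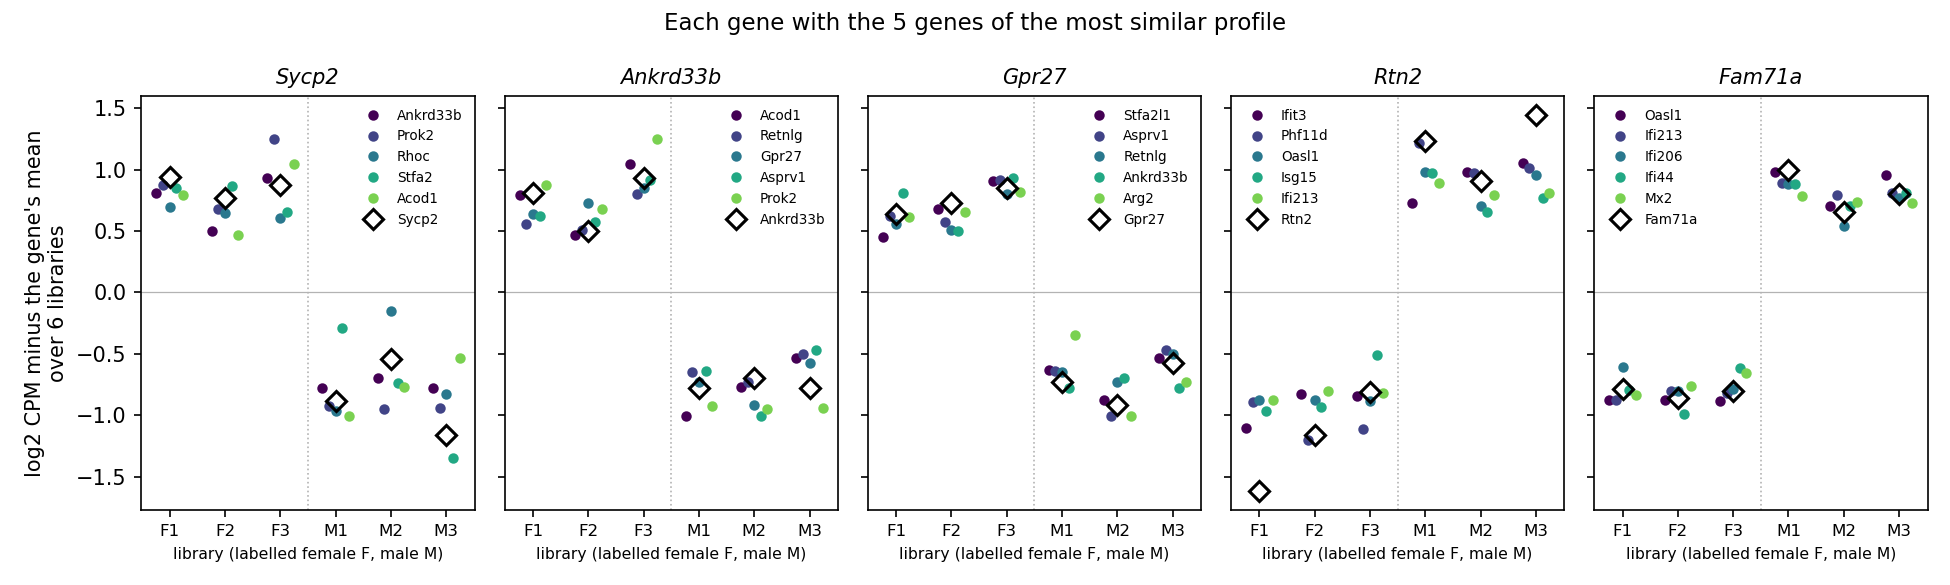
Centred log2 CPM of each of the 5 genes (open diamonds) and of the 5 genes with the most similar profile (circles) in the libraries labelled female (F) and male (M). The circles follow the diamonds closely for Fam71a and Gpr27 and less closely for Rtn2, whose own libraries spread more widely.

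RefSeq held a promoter window for 4 of the 5 genes. In the 250 bases before the start sites of Sycp2, Ankrd33b, Rtn2 and Fam71a, printed above, none of 8 motifs was found on either strand. They were the interferon response motif (GAAA, any 2 bases, GAAA), AP-1 (TGANTCA), CRE (TGACGTCA), C/EBP (TTGCNNAA), PU.1 (GAGGAAGT), NF-kB (GGGA, any 3 bases, CCC), the E-box (CACGTG) and E2F (TTCCCGCC). Among 32807 windows of that length, their shares were 2.97% for the interferon response motif, 6.75% for AP-1, 1.55% for CRE, 9.57% for C/EBP, 2.44% for PU.1, 4.78% for NF-kB, 6.02% for the E-box and 1.85% for E2F. The absence of these letters from 4 windows says nothing about the factors.

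The search was extended to the genes of like profile after the windows of the 5 genes had given no match. Of the 8 such genes of Rtn2 and Fam71a, 7 had a window and 4 held the interferon response motif, namely Ifit3, Isg15, Ifi206 and Ifi213. The windows of Ifi206 and Ifi213 share an identical run of 135 bases, so they do not count as separate sequences. Of the 7 windows for genes of like profile to Sycp2, Ankrd33b and Gpr27, 0 held the interferon response motif. Among these, the windows of Stfa2 and Stfa2l1 also share a long identical run, so they do not count as separate sequences either. The windows of Ifit3 (chr19:34583279-34583528, plus strand) and Isg15 (chr4:156200819-156201068, minus strand), both of GRCm38.p6, are shown beside those of Rtn2 and Fam71a because they hold the motif more than once, with overlapping copies in Isg15. Capitals mark the interferon response motif or its reverse complement and, nearest to the start site of Ifit3, an AP-1 motif.
Ifit3: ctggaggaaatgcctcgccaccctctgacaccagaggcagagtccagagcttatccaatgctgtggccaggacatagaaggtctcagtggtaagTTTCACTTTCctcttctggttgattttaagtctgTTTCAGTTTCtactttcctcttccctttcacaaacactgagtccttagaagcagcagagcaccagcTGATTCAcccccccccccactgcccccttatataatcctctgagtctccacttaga
Isg15: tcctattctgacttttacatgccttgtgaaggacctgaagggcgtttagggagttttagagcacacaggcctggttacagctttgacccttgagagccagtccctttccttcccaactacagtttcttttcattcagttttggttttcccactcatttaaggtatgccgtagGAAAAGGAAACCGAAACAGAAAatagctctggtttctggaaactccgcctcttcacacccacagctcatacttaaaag

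Genes of the families and complexes to which the 5 belong were counted next. As background for counts at an unadjusted p under 0.05 (edgeR), 1698 of all 11903 tested genes were higher and 1584 lower in libraries labelled female. For Sycp2, 28 genes of the synaptonemal complex and meiotic axis were measured and 10 passed the filter. Of these, 0 were higher and 1 lower in libraries labelled female (edgeR), and at an unadjusted p under 0.05 they were 0 and 3. DESeq2 and limma-voom also gave 0 higher. The lower gene was Stag3, a meiotic cohesin subunit, at 15.2 ± 0.458 CPM in libraries labelled female and 21.7 ± 1.74 CPM in the libraries labelled male (SD, n = 3 each; log2 difference -0.52, SE 0.10, edgeR adjusted p = 0.00202). Without the library labelled female 3 the count of lower genes was 3. With all 6 libraries, the share called in either direction was 10% beside 13.9% of all tested genes, and the median log2 difference of the 10 genes was -0.19, beside 0.0016 for all tested genes. Sycp1 and Syce3, further components of the synaptonemal complex, had no read in any library, which allows a level of up to 3 reads per library. Sycp3, the partner of SYCP2 in the axis, averaged 0.184 ± 0.114 CPM in libraries labelled female and 0.0784 ± 0.0913 CPM in the libraries labelled male (SD, n = 3 each). The most abundant gene of the list was Syce2, at 22.3 ± 2.69 CPM in libraries labelled female and 26.6 ± 1.29 CPM in the libraries labelled male (SD, n = 3 each; adjusted p = 0.102). Of 15 germ cell markers, 9 had no read in any library and 1, Ldhc, passed the filter (4.20 ± 0.650 CPM in libraries labelled female and 3.77 ± 0.254 CPM in those labelled male, SD, n = 3 each).

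In the mitotic cohesin complex and its loaders, 14 of 14 genes passed the filter, and 1 was higher and 0 lower in libraries labelled female (4 and 0 at an unadjusted p under 0.05; DESeq2 and limma-voom gave 0 lower). The higher gene was Stag2 (303 ± 15.2 CPM in libraries labelled female and 258 ± 8.21 CPM in those labelled male, SD, n = 3 each; log2 difference 0.23, edgeR adjusted p = 0.0113). Its adjusted p was 0.0503 without the library labelled female 1 and 0.0956 without that labelled male 3, where the count was 0, and 6 genes of the list passed without the library labelled female 3. With all 6 libraries, the share called in either direction was 7.14% beside 13.9% of all tested genes, and the median over the list was 0.08.

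For Ankrd33b, 46 further genes named Ankrd were measured and 28 passed the filter, of which 2 were higher and 2 lower in libraries labelled female, or 14.3% in either direction beside 13.9% of all tested genes, with a median log2 difference of -0.05. Ankrd22 (0.45, edgeR adjusted p = 0.00207) and Ankrd44 (0.20, adjusted p = 0.0479) were higher, and Ankrd10 (-0.25, adjusted p = 0.0139) and Ankrd16 (-0.24, adjusted p = 0.0238) were lower. Ankrd22, the largest of these differences, had 53.1 ± 7.24 CPM in libraries labelled female and 39.0 ± 2.93 CPM in the libraries labelled male (SD, n = 3 each). The range over the 28 genes was -0.42 to 0.45. Ankrd33b at 1.52 lay outside it, which follows from its choice for a large difference. Ankrd44, Ankrd10 and Ankrd16 each lost the call in several of the fits that left out a library: the count of higher genes was 4 without the library labelled female 3 and 1 without each of the other 5, and the count of lower genes was 0 without the library labelled female 2 or male 2 and 1 without that labelled male 1 or male 3.

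For Gpr27, the other receptors of its small family were scarce. Gpr85 averaged 0.650 ± 0.279 CPM in libraries labelled female and 0.478 ± 0.195 CPM in the libraries labelled male (SD, n = 3 each). Its log2 difference was 0.43 (edgeR adjusted p = 0.637). Gpr173 had 2 reads in all, both in the library labelled male 1, and did not pass the filter. Among 53 further class A orphan receptors, 19 passed the filter, of which 0 were higher and 3 lower in libraries labelled female (2 and 4 at an unadjusted p under 0.05; DESeq2 and limma-voom gave 0 higher), or 15.8% in either direction beside 13.9% of all tested genes. The lower genes were Gpr132 (39.6 ± 1.91 CPM in libraries labelled female and 59.3 ± 1.84 CPM in those labelled male, SD, n = 3 each; log2 difference -0.58, edgeR adjusted p = 7.44e-06), Gpr171 (-0.49, adjusted p = 0.000817) and Gpr183 (-0.30, adjusted p = 0.0308). Gpr183, a receptor for oxysterols, passed in 1 of the 6 fits that left out a library, that without the library labelled female 1, with adjusted p up to 0.102 in the others. The log2 differences of the 19 ran from -0.89 to 0.25. Gpr27 at 1.49 lay above all of them, which follows from its choice for a large difference.

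For Rtn2, 26 reticulons and other genes that shape or degrade the endoplasmic reticulum were measured and 23 passed the filter. Of these, 3 were higher and 0 lower in libraries labelled female (8 and 2 at an unadjusted p under 0.05; DESeq2 and limma-voom gave 0 lower), which is 13% of the 23 genes in either direction beside 13.9% of all tested genes. The reticulon Rtn3 had 403 ± 6.40 CPM in libraries labelled female and 326 ± 2.59 CPM in the libraries labelled male (SD, n = 3 each; log2 difference 0.31, edgeR adjusted p = 0.000482). Retreg1, a receptor for the autophagy of the reticulum, had 55.5 ± 1.98 CPM in libraries labelled female and 37.5 ± 1.92 CPM in the libraries labelled male (SD, n = 3 each; 0.56, adjusted p = 1.64e-05). Ckap4, a protein of reticulum sheets, was the third (0.23, adjusted p = 0.0158), with adjusted p of 0.0775 and 0.0925 without the libraries labelled male 1 and 2. Without the library labelled female 3, 6 genes were higher and 1 lower. Rtn4 had 197 ± 2.64 CPM in libraries labelled female and 191 ± 13.8 CPM in those labelled male, and Rtn1 had 1.76 ± 0.836 CPM in libraries labelled female and 2.86 ± 1.03 CPM in the libraries labelled male (SD, n = 3 each); neither passed. The median over the list was 0.04.

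For Fam71a, 8 further genes of its family and of RAB2 were measured and 2 passed the filter, of which 0 were higher and 0 lower in libraries labelled female (1 and 0 at an unadjusted p under 0.05; DESeq2 and limma-voom gave 0 in both directions). Rab2a had 152 ± 5.84 CPM in libraries labelled female and 136 ± 3.05 CPM in the libraries labelled male (SD, n = 3 each; log2 difference 0.16, edgeR adjusted p = 0.0764), and Fam71b averaged 1.30 ± 0.420 CPM in libraries labelled female and 1.05 ± 0.581 CPM in the libraries labelled male (SD, n = 3 each). No other measured gene named Fam71 passed the filter. Fam71a was thus the one gene of its family above 2 CPM in both groups.

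**Figure D4:**
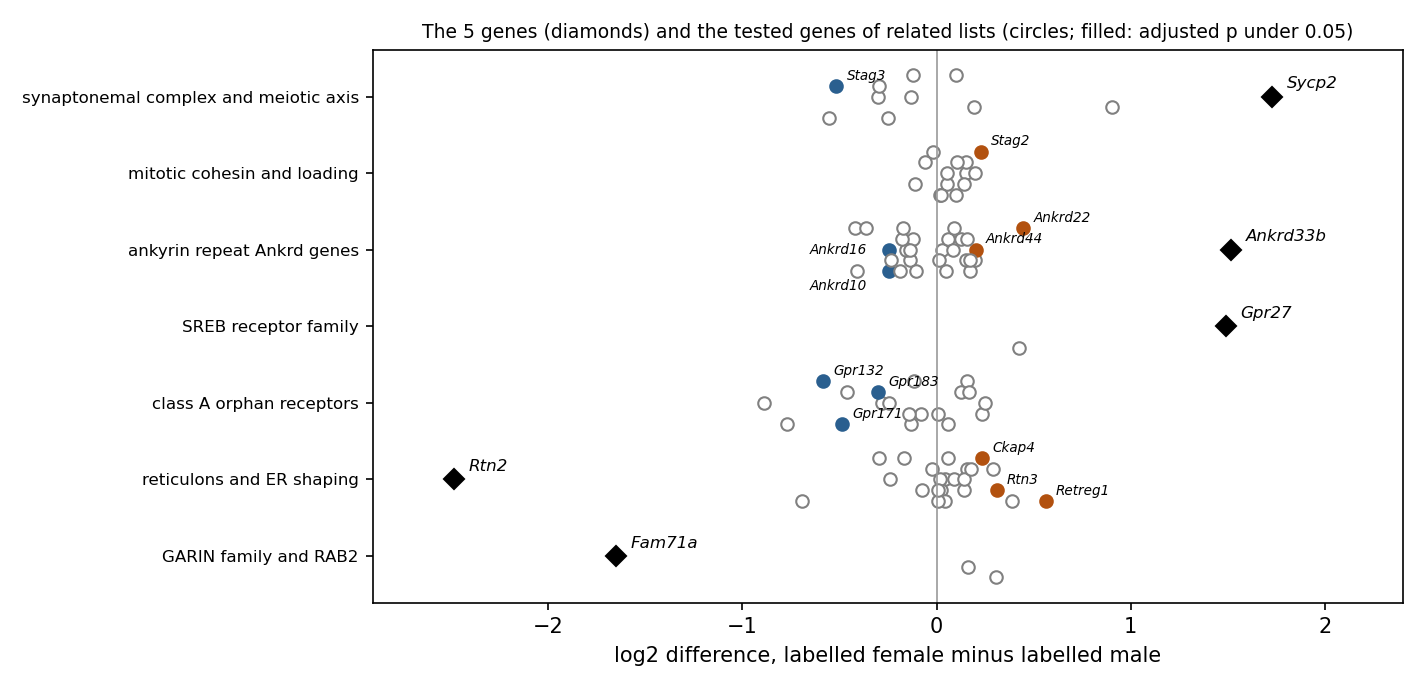
Log2 difference (libraries labelled female minus those labelled male) of the 5 genes, as diamonds, and of the tested genes of each related list, as circles, filled at an adjusted p under 0.05. Each diamond lies outside the range of the circles in its list, which follows from the choice of the 5 genes for large differences.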

How the data were processed

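Poly-A RNA of 6 libraries was analysed. Per the labels' protocols, poly-A RNA was fragmented and copied with random primers, and no step that marks the strand is named. Per the submitters' processing notes, cutadapt 1.15, HISAT2 2.0.5 and GRCm39 were used, without their roles or order. No label or file header names the tool that counted the reads or its treatment of strand and shared reads. Raw counts were deposited by the authors for 21955 Ensembl genes per library.

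Groups came from the labels. Counts were filtered (filterByExpr, minimum count 10), TMM-normalized and tested with the quasi-likelihood test of edgeR 4.0.16 in R 4.3.3, with group as the only term and Benjamini-Hochberg adjustment over all 11903 tested genes. The procedure was tested on simulated data. A log2 difference is the value in libraries labelled female minus that in libraries labelled male. CPM per library use the TMM factors, and log2 CPM for profiles has a prior count of 2. No library was a copy of another: within groups, the chi-square of paired counts was 4.19 to 17.4 per degree of freedom. Symbols, gene order and exon length came from GENCODE, and promoter windows from RefSeq, both of GRCm38; since that build differs from GRCm39, no gene coordinates are given. Alternatives were DESeq2 1.42.0, voom of limma 3.58.1, other scaling factors, no filter, a replicate block, no mitochondrial genes and each library left out.

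The 5 genes and the lists were chosen with earlier results of these data known. Named genes are the 5, their adjacent and called neighbours, the 5 nearest by profile, their neighbours in the ranking, and the called and most abundant genes of each list. Unchanged relatives, the adjacent-gene tally and its orientation, the window length, the motif search beyond the 5 genes and the windows printed were chosen after values were seen. The fitted log2 differences were first computed with a prior count of 2 and then with the default of edgeR, which is reported.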

Additional observations from a re-analysis of the deposited data

How the results depend on the processing

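The log2 differences of Sycp2, Ankrd33b, Gpr27, Rtn2 and Fam71a kept their sign under each of the 13 alternatives. They moved by less than 1 SD between libraries, which leaving out 1 of 3 libraries could hardly exceed. The genes were chosen for large differences and their groups do not overlap, so nothing is read from the kept sign. With 1 library left out, the log2 difference ran from 1.59 to 1.91 for Sycp2, 1.43 to 1.63 for Ankrd33b and 1.40 to 1.58 for Gpr27. It ran from -2.73 to -2.29 for Rtn2 and from -1.73 to -1.55 for Fam71a. With a fitted prior count of 2, an alternative chosen after seeing the data, that of Rtn2 was -2.36. The counts over all genes ran from 439 to 1439 higher and 467 to 1269 lower when 1 library was left out, both highest without the library labelled female 3. In the same fits, the meiotic list had 1 to 3 lower genes, the cohesin list 0 to 6 higher, the reticulon list 2 to 6 higher and 0 to 1 lower, and the Ankrd list 1 to 4 higher and 0 to 2 lower. Of the other settings, no filter gave 2 lower meiotic genes and 2 higher cohesin genes, DESeq2 gave 2 higher cohesin genes, and DESeq2 size factors, upper-quartile factors, limma-voom and leaving out mitochondrial genes each gave 1 higher Ankrd gene. The replicate block gave 2 lower meiotic genes and 2 higher cohesin genes. Same-numbered libraries had correlations of deviations of -0.039, 0.065 and 0.063, and differently numbered ones ran from -0.138 to 0.090. With 3 libraries a group, these correlations cannot show whether the numbers pair the libraries. The cause of the shifts in counts between settings was not tested.

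Rtn2 rests on 54 reads in all over the libraries labelled female, and most genes of the meiotic, orphan receptor and Fam71 lists lie under the filter, where a difference was not detectable at this depth. The contrast has 3 libraries a group, its labels are not borne out by the Y-linked genes, and no unexposed library was analysed here.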
